A study of Mus musculus with 6 samples.

Results

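Mitochondrial ribosomal proteins are encoded in the nucleus and build the ribosome that works inside mitochondria. The genes described here are the 78 genes of the deposited table whose symbol begins with Mrpl or Mrps and a number, out of 22800 genes in all. The rule uses names and no measured value, though it was set with earlier results of these data known. By their place in the mammalian particle, 26 of them belong to the small subunit and 51 to the large subunit. Mrps30 and Mrps18a carry small-subunit names but are counted with the large subunit, and Mrps36 is a subunit of the 2-oxoglutarate dehydrogenase complex rather than of the ribosome.

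The RNA came from bronchoalveolar lavage fluid, saline rinsed through the lung to collect its free cells, of mice that had received vehicle (3 libraries, replicates 2, 3 and 4) or an intraperitoneal dose of 20 µg sulfatide (3 libraries, replicates 1, 2 and 3). Sulfatide is a sulfated myelin glycolipid recognised by type II natural killer T cells. The title of the series concerns lung ischemia and reperfusion, and the labels do not state whether these mice underwent it, nor their strain, genotype or age. Nothing in the labels says that the libraries of a group are separate animals, so p-values measure the spread between these libraries, which may be technical.

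Levels are in FPKM, fragments relative to the length of the transcript and the size of the library, which allows genes to be compared with each other per length. FPKM summed to 1126779 to 1168474 in the vehicle libraries and to 1217971 to 1249691 in the sulfatide libraries, and depth relative to vehicle replicate 2, estimated from the most frequent ratio of low values, lay between 0.850 and 1.2. All 8 macrophage markers were tested, with summed FPKM of 29700 to 34400 in vehicle and 27100 to 38300 in sulfatide. Most of that sum was Lyz2, at 25051 to 35891 FPKM over the 6 libraries, while Mertk was at 2.13 to 4.22 FPKM and Mrc1 at 7.68 to 13.6 FPKM in vehicle and 25.5 to 33.6 FPKM in sulfatide. Of 11 alveolar macrophage markers, 5 were tested, with summed FPKM of 133 to 182 in vehicle and 89.6 to 238 in sulfatide. Plet1 was at 27.62 to 49.44 FPKM in vehicle and 1.95 to 5.04 FPKM in sulfatide. The groups overlapped for the other tested markers of this list, Marco, Chil3, Ear2 and Pparg. Fabp1, Krt79 and Cidec were listed at 0 in all 6 libraries. No T, NKT or NK cell marker and no lung epithelial marker reached the level for testing, while 1 of 5 B cell markers did (summed FPKM 0.350 to 1.36 in vehicle and 1.24 to 1.40 in sulfatide). Of 8 fibroblast and endothelial markers 5 were tested, with sums of 58 to 75.7 and 52.7 to 68.1 FPKM. Among them Pdgfrb was at 5.89 to 6.93 FPKM in vehicle and 1.62 to 2.03 FPKM in sulfatide, while the groups overlapped for Col1a1, Col1a2, Col3a1 and Acta2. Of 9 neutrophil markers 4 were tested, and the 9 summed to 117 to 155 FPKM in vehicle and 376 to 514 in sulfatide. S100a8 gave 91.7 to 114 and 361 to 471 FPKM of this, and S100a9 17.2 to 30.7 and 10.97 to 35.2 FPKM. Camp went the other way, at 4.17 to 5.62 FPKM in vehicle and 3.22 to 3.91 FPKM in sulfatide, and the groups overlapped for Ngp. Retnlg, Mpo and Elane did not exceed 0.45 FPKM, and Ly6g and Cxcr2 did not exceed 0.180 FPKM. Their part in the results below was not tested.

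The mitochondrial ribosome translates the 13 proteins that mitochondrial DNA still encodes, all of them subunits of respiratory chain complexes or of ATP synthase. It descends from a bacterial ribosome, so that part of its proteins have bacterial counterparts and part are found in mitochondria alone. Its proteins are made in the cytosol and imported, and they assemble on mitochondrial ribosomal RNA with the help of GTPases, helicases and RNA-modifying enzymes. In macrophages, the balance between respiration and glycolysis is known to differ between activation states.

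RefSeq promoter sequences (build GRCm38.p6) were found for 69 of the 78 members. The 6 printed here run from 150 bases before the start of transcription to 30 bases after it, 5′ to 3′ on the gene's own strand, with capitals marking CCGGAAG or its reverse complement, the core recognised by ETS factors such as GABP. The first 5 belong to the members with the smallest limma adjusted p, all higher in sulfatide (Mrpl41, Mrpl52, Mrpl51, Mrpl57 and Mrps21). Mrpl28, 4th by log2 fold change (0.48) but with a larger adjusted p, is not printed, and its promoter held no CCGGAAG. The last printed belongs to a member with the same letters whose level differed little (Mrps22, chosen after its values were seen). Positions are chr2:24975069-24975248 (minus strand), chr14:54426759-54426938 (plus), chr6:125192050-125192229 (plus), chr14:57826089-57826268 (plus), chr3:95871485-95871664 (minus) and chr9:98601650-98601829 (minus), in that order.
Mrpl41: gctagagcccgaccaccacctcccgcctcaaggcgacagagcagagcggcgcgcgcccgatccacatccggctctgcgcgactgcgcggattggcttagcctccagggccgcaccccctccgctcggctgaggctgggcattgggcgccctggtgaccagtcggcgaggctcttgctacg
Mrpl52: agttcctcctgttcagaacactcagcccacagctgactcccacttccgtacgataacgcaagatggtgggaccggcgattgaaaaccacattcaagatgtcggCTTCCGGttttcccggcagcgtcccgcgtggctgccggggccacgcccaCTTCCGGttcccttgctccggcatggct
Mrpl51: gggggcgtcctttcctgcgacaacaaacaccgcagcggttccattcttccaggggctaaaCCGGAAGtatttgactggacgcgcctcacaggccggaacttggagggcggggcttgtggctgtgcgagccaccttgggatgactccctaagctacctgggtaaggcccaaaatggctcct
Mrpl57: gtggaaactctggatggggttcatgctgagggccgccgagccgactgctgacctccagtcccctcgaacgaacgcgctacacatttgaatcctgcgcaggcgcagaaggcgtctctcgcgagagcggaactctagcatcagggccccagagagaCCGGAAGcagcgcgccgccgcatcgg
Mrps21: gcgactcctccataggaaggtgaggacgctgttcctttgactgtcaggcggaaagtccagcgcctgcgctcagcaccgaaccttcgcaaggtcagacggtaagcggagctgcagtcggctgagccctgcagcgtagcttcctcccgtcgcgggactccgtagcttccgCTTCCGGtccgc
Mrps22: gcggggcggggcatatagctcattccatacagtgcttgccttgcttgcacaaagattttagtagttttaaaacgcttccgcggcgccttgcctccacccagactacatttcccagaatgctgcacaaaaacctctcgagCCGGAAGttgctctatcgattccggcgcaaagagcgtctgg

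Motifs were searched in a wider window than the printed one, from 250 bases before the start to 50 after it, over all promoter entries of a gene. The letters CCGGAAG, searched on both strands, were in the promoters of 26 of 69 members (37.7%), against 22.4% of the 8460 tested genes with a promoter in the table and 9.93% of all 27025 genes in it. They were in 5 of the 9 promoters of members called higher in sulfatide (Mrpl51, Mrpl52, Mrpl57, Mrpl58 and Mrps21). The promoters of Mrpl41, Mrpl28, Mrpl36 and Mrpl40 held none. AAGATGGC, the core bound by YY1, was in 17.4% of member promoters and 5.83% of those of tested genes, and GCATGCGC, part of the NRF1 site, in 11.6% and 6.44%. The E-box CACGTG was in 7.25% and 12.1%. CCAAT (39.1% and 43.3%), GGGCGG (49.3% and 69.1%) and TATAAA (7.25% and 8.36%) were less frequent among members than among tested genes, and these shares were not tested. Of the 9 promoters of called members, AAGATGGC was in 1, GCATGCGC in 0 and CACGTG in 1. CCAAT was in 3 of the 9, GGGCGG in 3 and TATAAA in 0. No matches of the first 4 motifs overlapped in any member promoter. A match describes letters only.

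Every member was expressed. All 78 passed the filter of at least 1 FPKM in at least 3 libraries, and the lowest single value was 13.4 FPKM (Mrps2, sulfatide replicate 1). Mean FPKM over the 6 libraries had a median of 63.6, against 17.6 for all 10405 tested genes, and 18 members exceeded 100 FPKM while 7 lay under 25. The subunits were at similar levels, with a median of 51.5 FPKM for the small and 69.1 for the large subunit. The highest members were Mrpl52, a mitochondria-specific protein of the large subunit (394 FPKM), Mrpl33, a homologue of bacterial L33 (319 FPKM), Mrps21, a homologue of bacterial S21 (279.6 FPKM), and Mrpl20, a homologue of bacterial L20 (273 FPKM). The lowest were Mrps2, a homologue of bacterial S2 (15.0 FPKM), Mrps27, an RNA-binding pentatricopeptide repeat protein (17.1 FPKM), Mrps35 (19.6 FPKM) and Mrps22 (20.5 FPKM), of which the last 3 are small-subunit proteins without a bacterial counterpart. Levels of proteins that are incorporated into the same particle thus differed up to 26.3-fold at the RNA level.

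Sulfatide libraries had slightly higher levels of most members. Of 78 members, 9 were higher by limma's moderated test with Benjamini-Hochberg adjustment over all genes (11.5% of members), beside 8.31% of all tested genes, and none was lower, beside 10.4%. At an unadjusted p under 0.05, 24 members were higher, beside 18.0% of tested genes, and 0 lower, beside 15.8%. The median log2 fold change of the members was 0.176, against 0.037 over all tested genes, on the log2(FPKM + 1) scale, and 63 members had a value above 0, where 55.3% of tested genes did. The difference was under 0.1 in size for 19 members, between 0.1 and 0.3 for 41, and above 0.3 for 18, all of the last higher in sulfatide. All 3 sulfatide libraries lay above all 3 vehicle libraries for 18 members, beside 18.6% of tested genes, and below them for 0, beside 18.3%. In such bulk RNA, more cells of a type and more RNA per cell cannot be told apart.

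**Figure D1:**
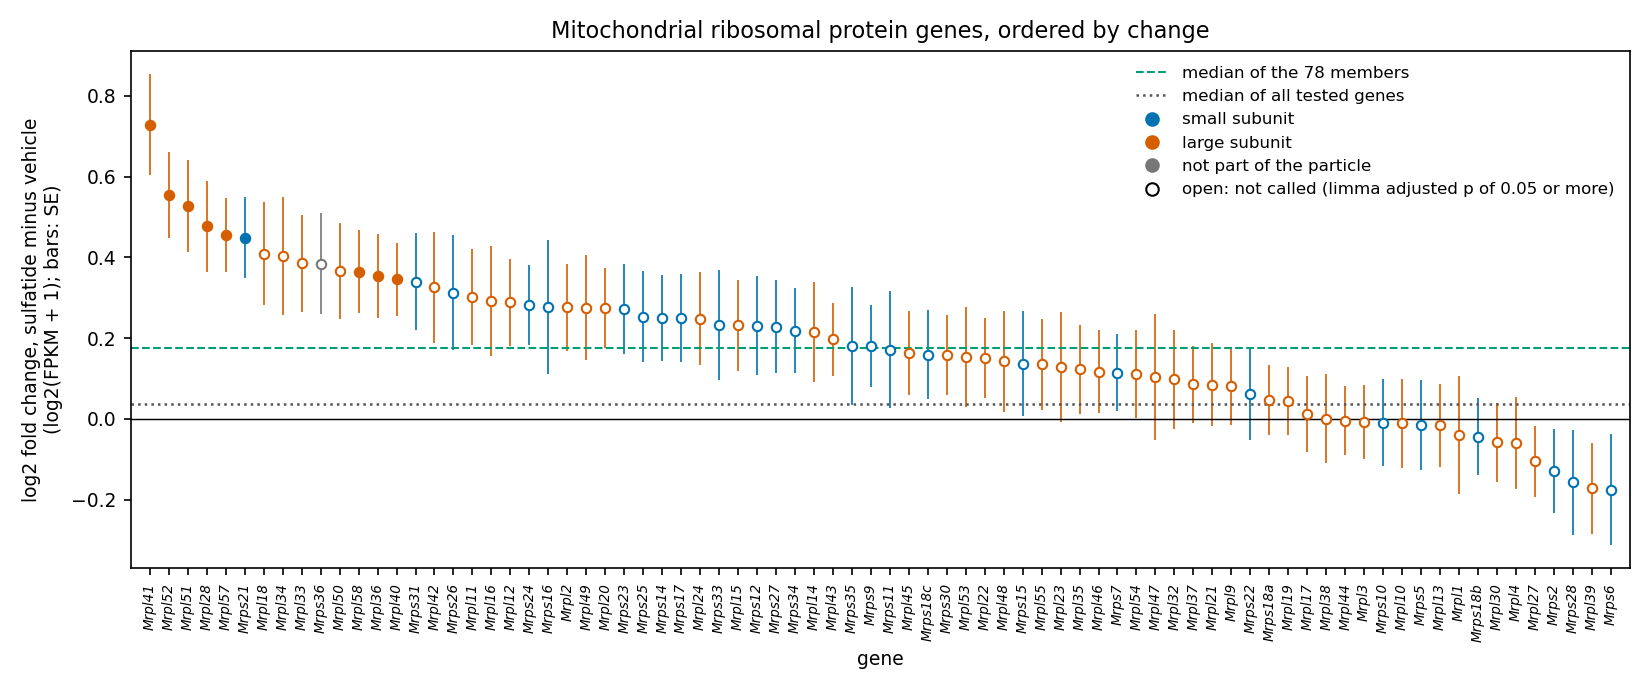
Log2 fold change (sulfatide minus vehicle, log2(FPKM + 1), 3 libraries each) of the 78 genes in order of size, with standard errors as bars, coloured by subunit, and filled where limma's adjusted p was below 0.05. The 9 filled points lie between 0.35 and 0.73, the 6 highest of them above every open point and the other 3 (Mrpl58, Mrpl36 and Mrpl40) among open points, no gene is filled below 0, and the median of the 78 (0.176) stands above that of all tested genes (0.037).

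Among the mitochondria-specific proteins of the large subunit, 6 of 21 members rose, beside 8.31% of all tested genes, with a median of 0.163 for the whole class. Mrpl41 had the largest log2 fold change on FPKM, while Mrpl51 exceeded it (0.57 against 0.51) once a trend on length and GC content was removed. Mrpl41, a protein of the large subunit, has also been described as a promoter of growth arrest and apoptosis. Its gene lies at chr2:24974117-24975098 (GRCm38, minus strand). In the vehicle group (replicates 2, 3 and 4, the order used throughout) it stood at 34.8, 45.9 and 40.6 FPKM, and in the sulfatide group (replicates 1, 2 and 3) at 76.5, 65.5 and 60.7 FPKM. The groups did not overlap, and the means were 40.4 ± 5.55 and 67.5 ± 8.08 FPKM (SD, n = 3 each), a 1.67-fold rise (log2 fold change 0.73 ± 0.13 SE, limma adjusted p = 0.00425). It was the only one of the 9 that passed under all 16 alternatives, with adjusted p from 0.00088 to 0.0425.

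Mrpl52, the most abundant member, was even in the vehicle libraries, at 311, 315 and 327 FPKM, and stood at 498, 396 and 515 FPKM in the sulfatide libraries, where replicate 2 was the lowest. It rose 1.48-fold (318 ± 8.73 to 469.7 ± 64.6 FPKM, log2 fold change 0.55 ± 0.11, limma adjusted p = 0.00789, range 0.00058 to 0.0834). The gene is at chr14:54426909-54429756 (plus strand). Mrpl51 was at 172, 209.5 and 168 FPKM in vehicle and 297, 238 and 259 under sulfatide, and rose 1.44-fold (log2 fold change 0.53 ± 0.11, limma adjusted p = 0.0145). Vehicle replicate 3 came nearest to the sulfatide libraries. Mrpl51 did not pass without vehicle replicate 2 (limma adjusted p = 0.0738) or vehicle replicate 4 (0.0536).

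Mrpl57, a short protein formerly called MRP63, was at 79.4, 83.7 and 74.1 FPKM in vehicle and 116, 111 and 99.3 under sulfatide, without overlap. It rose 1.38-fold (79.1 ± 4.81 to 109 ± 8.67 FPKM, log2 fold change 0.46 ± 0.09, limma adjusted p = 0.00992). Mrpl52 and Mrpl57 passed without any single library in turn. Mrpl58, a peptidyl-tRNA hydrolase that frees stalled mitochondrial ribosomes, was at 39.0, 45.8 and 43.6 FPKM in vehicle and 61.1, 50.8 and 54.4 under sulfatide (log2 fold change 0.36 ± 0.10, limma adjusted p = 0.0397). Mrpl40 was at 60.2, 64.3 and 58.5 FPKM in vehicle and 82.6, 71.1 and 80.03 under sulfatide (log2 fold change 0.35 ± 0.09, limma adjusted p = 0.0301). Both kept apart by group, yet neither passed with vehicle replicate 2 left out (limma adjusted p = 0.161 for Mrpl58 and 0.115 for Mrpl40), nor with vehicle replicate 4 (0.0881 and 0.0951), or with replicate 1 (0.143 and 0.114) or 3 (0.101 and 0.108) of sulfatide left out.

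Of the 30 large-subunit members with a bacterial homologue, 2 rose, a share near that of all tested genes (8.31%), and the median was 0.132. Mrpl28, the counterpart of bacterial L28, was at 56.9, 69.03 and 61.1 FPKM in vehicle and 99.6, 81.6 and 80.6 under sulfatide, a 1.40-fold rise (log2 fold change 0.48 ± 0.11, limma adjusted p = 0.0203). It missed the threshold when replicate 2 (limma adjusted p = 0.0949) or 4 (0.0631) of vehicle, or replicate 1 of sulfatide (0.0658), was left out. Mrpl36, the counterpart of L36, was at 81.2, 80.8 and 64.6 FPKM in vehicle and 97.1, 96.8 and 94.8 under sulfatide (log2 fold change 0.35 ± 0.10, limma adjusted p = 0.0440). Vehicle replicate 4 was the low library. Of the 6 fits with 1 library left out, it passed only in that without vehicle replicate 3, and limma's adjusted p otherwise rose to 0.0798 (vehicle 2 left out), 0.114 (vehicle 4), 0.117 (sulfatide 1), 0.0817 (sulfatide 2) and 0.108 (sulfatide 3).

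Several well-studied large-subunit proteins did not pass. Mrpl12, the stalk protein that also binds mitochondrial RNA polymerase, was at 88.3, 112 and 94.5 FPKM in vehicle and 127, 110.4 and 123 under sulfatide (log2 fold change 0.29 ± 0.11, limma adjusted p = 0.0931). Vehicle replicate 3 lay above sulfatide replicate 2, and without vehicle replicate 3 the gene passed (limma adjusted p = 0.0189). Mrpl11, at the base of the stalk, showed the same overlap (71.2 ± 7.89 and 88.1 ± 11.1 FPKM, limma adjusted p = 0.109) and passed without vehicle replicate 3 (0.0396) and without sulfatide replicate 2 (0.0410). Among the most abundant members, Mrpl33 (277 ± 39.3 and 361 ± 39.8 FPKM, limma adjusted p = 0.0561) passed without vehicle replicate 3 (0.0119) or sulfatide replicate 2 (0.0407), and Mrpl20 (247 ± 24.7 and 299 ± 23.2 FPKM, limma adjusted p = 0.0861) without vehicle replicate 3 (0.0326). Mrpl27, whose bacterial relative lies near the peptidyl transferase centre, was at 107 ± 6.43 and 99.2 ± 6.16 FPKM (log2 fold change -0.11 ± 0.09, limma adjusted p = 0.429).

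In the small subunit, 1 of 26 members rose, Mrps21, beside 8.31% of all tested genes, and the median was 0.200. With the length and GC trend removed, 0 were higher and 2 lower in this subunit (Mrps6 and Mrps28), and the median was 0.069. Mrps21 was at 231, 260.1 and 218 FPKM in vehicle and 334, 290.2 and 345 under sulfatide (log2 fold change 0.45 ± 0.10, limma adjusted p = 0.0158), without overlap. The call was lost when vehicle 2 (limma adjusted p = 0.0751), vehicle 4 (0.0574), sulfatide 1 (0.0537) or sulfatide 3 (0.0686) was left out. The median was 0.165 for the 16 members counted as bacterial homologues and 0.230 for the 10 counted as mitochondria-specific, Mrps18b included. Of these 10, 9 had a value above 0 and 0 passed (2 at an unadjusted p under 0.05). The difference in call rate between the subunits was not tested. Mrps12, a protein of the decoding region, was at 56.7 ± 7.34 and 66.7 ± 8.57 FPKM (log2 fold change 0.23 ± 0.12, limma adjusted p = 0.222).

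A further 15 members had an unadjusted p under 0.05 without passing, all of them higher in sulfatide: 9 of the large subunit, 5 of the small subunit and Mrps36. Nearest to the threshold was Mrpl18, which also carries 5S ribosomal RNA towards mitochondria, at 103, 131 and 99.8 FPKM in vehicle and 166, 130.2 and 146 under sulfatide (log2 fold change 0.41 ± 0.13, limma adjusted p = 0.0545). Vehicle replicate 3 and sulfatide replicate 2 were level for it. In the small subunit these were Mrps31 (18.9 and 24.2 FPKM), Mrps24 (68.6 and 83.4 FPKM), Mrps23 (113 and 137 FPKM), Mrps14 (141 and 168 FPKM) and Mrps17 (142 and 168 FPKM), with log2 fold changes from 0.25 to 0.34. The first 3 of them had groups that did not overlap. Mrpl18 and these 5 were chosen after their values were seen.

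The members with the lowest values were Mrps6 (46.5, 54.1 and 38.3 FPKM in vehicle, 45.5, 36.2 and 40.2 under sulfatide, log2 fold change -0.18 ± 0.14, limma adjusted p = 0.402), Mrpl39 (-0.17 ± 0.11), Mrps28 (-0.16 ± 0.13) and Mrps2 (-0.13 ± 0.10). Their groups overlapped. For Mrps6, Mrpl39 and Mrps28, vehicle replicate 3 was the highest of the 6 libraries. Of the 3 paralogues that share the S18 fold, Mrps18c (207 ± 22.0 and 232 ± 26.6 FPKM, log2 fold change 0.16 ± 0.11) and Mrps18b (41.6 ± 3.67 and 40.2 ± 1.66 FPKM, -0.04 ± 0.10) are placed in the small subunit and Mrps18a (97.3 ± 4.94 and 101 ± 6.73 FPKM, 0.05 ± 0.09) in the large, and none passed. Mrps18b and Mrps18a were counted above as mitochondria-specific although they share this fold, and only Mrps18c as a bacterial homologue. Mrps30 was at 25.9 ± 2.31 and 29.0 ± 1.61 FPKM (log2 fold change 0.16 ± 0.10). Mrps36, not part of the particle, was at 60.8, 77.9 and 55.6 FPKM in vehicle and 89.0, 79.9 and 83.1 under sulfatide (log2 fold change 0.38 ± 0.13, limma adjusted p = 0.0621, and 0.00527 without vehicle replicate 3).

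**Figure D2:**
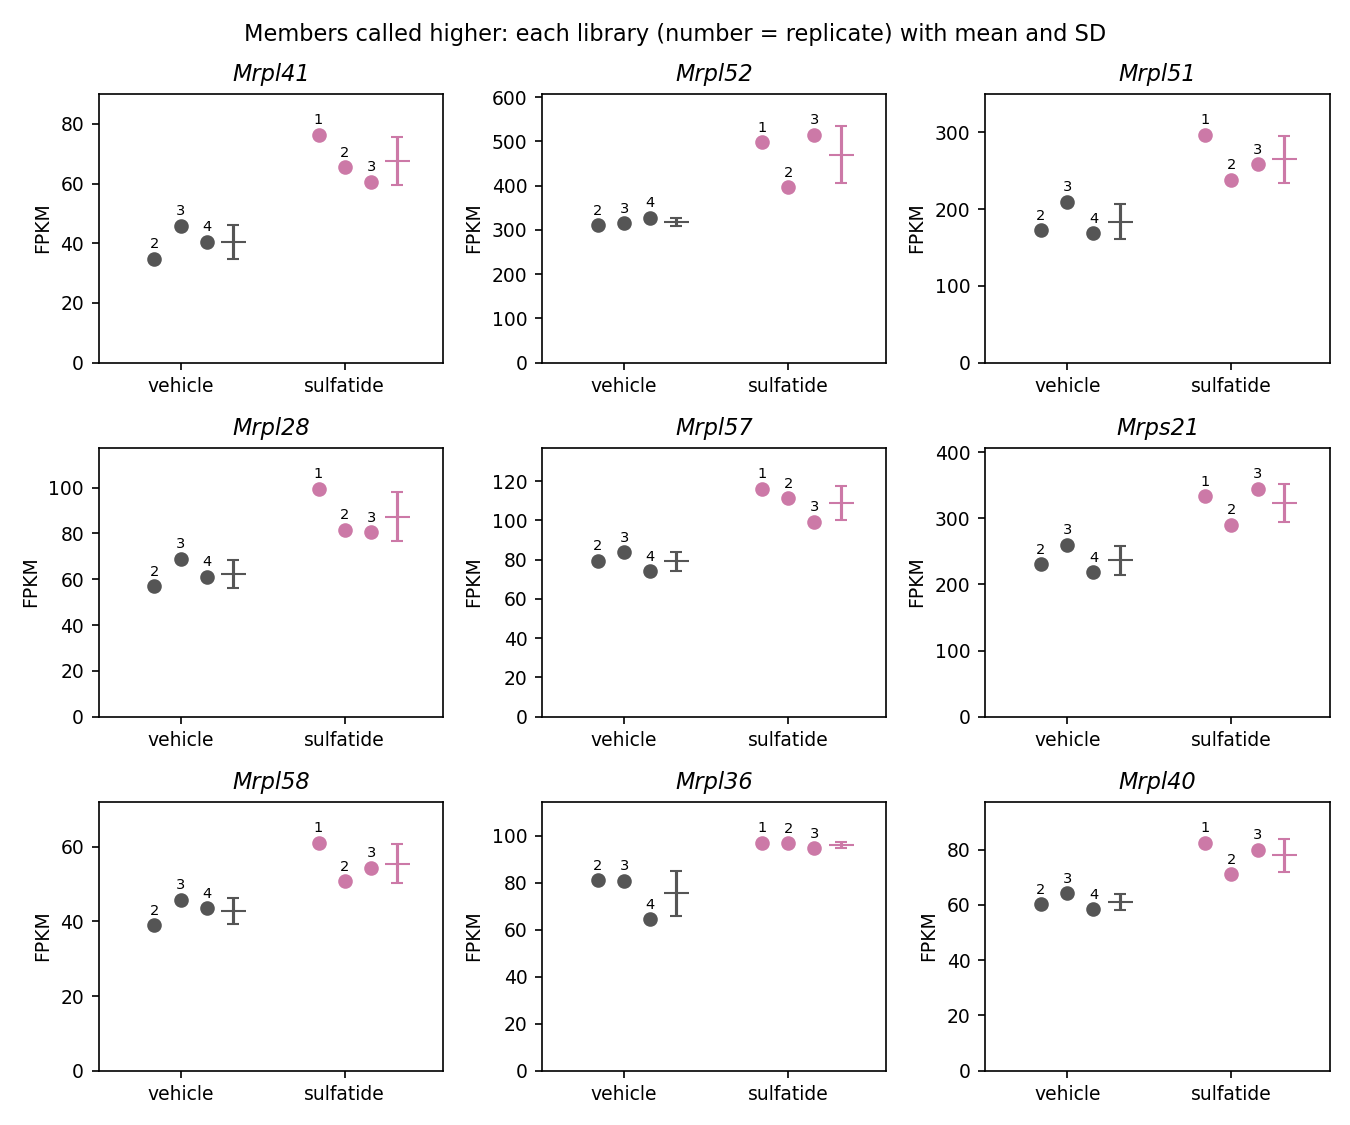
FPKM of the 9 genes called higher, 1 panel a gene, with each library as a point labelled by its replicate number and the group mean with SD beside it; each axis starts at 0. In every panel the 3 sulfatide points lie above the 3 vehicle points, and Mrpl41 has the widest gap relative to its level.

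Libraries of the same group differed in most members at once. Vehicle replicate 3 was the highest vehicle library for 69 of 78 members (88.5%, against 50.8% of tested genes), and sulfatide replicate 1 the highest sulfatide library for 68 (87.2%, against 45.2%). Sulfatide replicate 2 was the lowest of its group for 51 members (65.4%, against 37.9%). Summed over the 78 genes, vehicle libraries held 5796, 6682 and 5648 FPKM and sulfatide libraries 7788, 6557 and 7106 FPKM. Vehicle replicate 3 thus stood above sulfatide replicate 2, as it did for 53 members singly (67.9%, against 55.2% of tested genes). Without vehicle replicate 3, 28 members were called higher, beside 13.8% of tested genes, and the median was 0.264. With another library left out the count was 3 (vehicle 2, beside 2.55% of tested genes), 3 (vehicle 4, 4.10%), 4 (sulfatide 1, 3.35%), 12 (sulfatide 2, 7.68%) and 5 (sulfatide 3, 4.25%).

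Cell cycle genes also differed between libraries of a group. The mean log2(FPKM + 1) of 35 of them was 4.10, 4.65 and 3.75 in the vehicle libraries and 5.27, 4.89 and 4.45 in the sulfatide libraries. That of the members was 5.90, 6.10 and 5.85, then 6.25, 6.04 and 6.10. In both, vehicle replicate 3 was the highest of its group and sulfatide replicate 1 the highest of the 6, while the lowest sulfatide library was replicate 3 for the cell cycle genes and replicate 2 for the members. Of the cell cycle genes 14 rose, beside 8.31% of all tested genes, and none fell, beside 10.4%. At an unadjusted p under 0.05 these counts were 23 and 0, beside 18.0% and 15.8%. Their median log2 fold change was 0.757. The part of the cell cycle difference in the members' values was not tested.

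**Figure D3:**
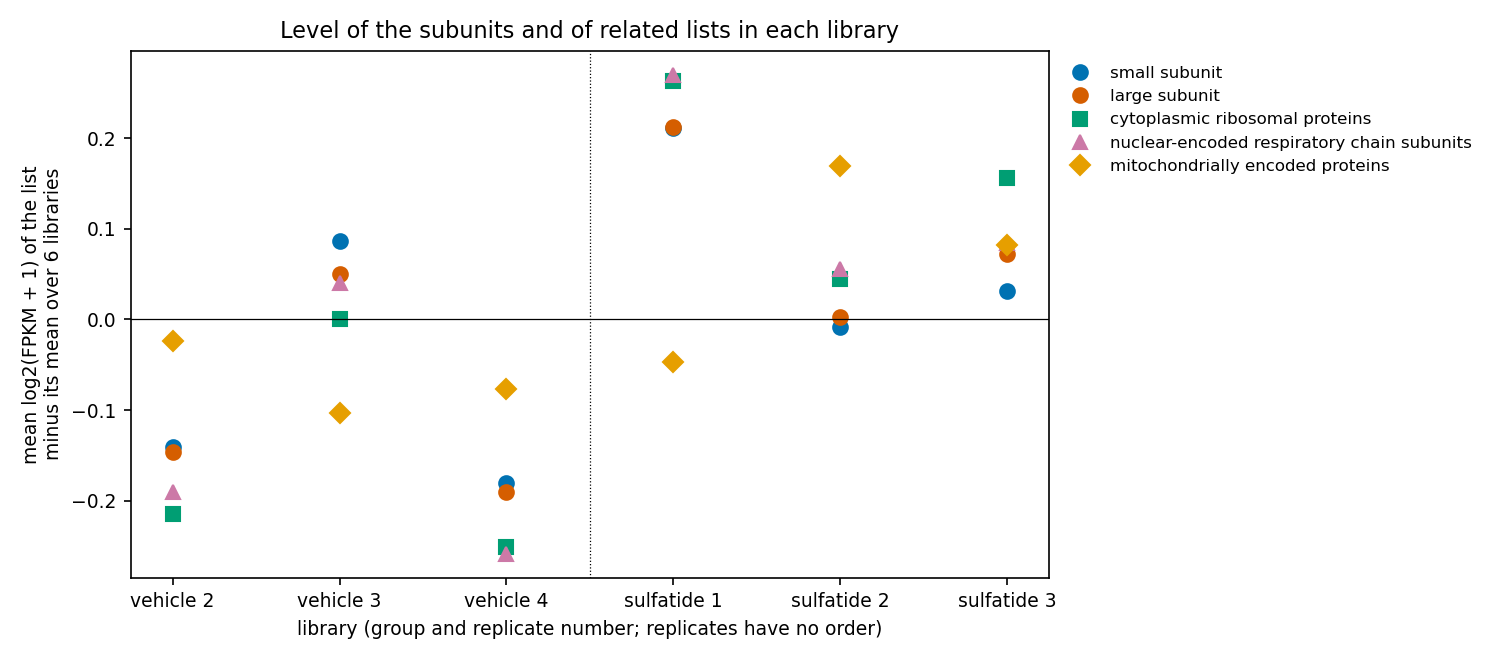
Mean log2(FPKM + 1) of the genes of each subunit and of 3 related lists in each of the 6 libraries, minus the list's mean over the libraries. The subunits lie close to each other, cytoplasmic ribosomal proteins and nuclear-encoded respiratory chain subunits follow the same pattern with vehicle replicate 3 high and sulfatide replicate 2 low in their groups, and the mitochondrially encoded genes are lowest in vehicle replicate 3 and highest in sulfatide replicate 2.

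The products that this ribosome makes were represented by 12 tested genes of mitochondrial DNA. None passed (1 at an unadjusted p under 0.05, higher, and 0 lower), all 12 had log2 fold changes above 0, and the median was 0.139. COX2, a subunit of cytochrome c oxidase, was at 62.3, 58.02 and 52.6 FPKM in vehicle and 67.4, 76.3 and 70.8 under sulfatide (log2 fold change 0.31 ± 0.10, limma adjusted p = 0.0522). Levels differed widely among these genes. COX2 was among the low ones, with COX3, ATP6, ND3 and ND4L, whose group means ran from 6.22 (ND4L, vehicle) to 71.5 FPKM (COX2, sulfatide). The other tested genes had group means from 436 (ND2, vehicle) to 5194 FPKM (COX1, sulfatide). Whether counting shaped this spread, the values of COX2 or the median of the list was not tested. Their mean log2 level was lowest in vehicle replicate 3 (7.62, against 7.70 and 7.65 in replicates 2 and 4) and highest in sulfatide replicate 2 (7.90, against 7.68 and 7.81 in replicates 1 and 3). For the members, vehicle replicate 3 was the highest of its group and sulfatide replicate 2 the lowest. Of the 84 tested nuclear-encoded respiratory chain subunits 19 rose and none fell (47 and 0 unadjusted), with a median of 0.292, and of 89 cytoplasmic ribosomal protein genes, paralogues included, 35 rose and none fell (71 and 0 unadjusted), with a median of 0.309. The cytochrome oxidase subunit Cox8a (1.40-fold) and the complex I subunit Ndufv3 (1.47-fold) had the smallest p of the former. Beside these counts, 8.31% of tested genes were called higher. In TPM, 4 and 8 genes of the lists were called higher (4.49% of tested genes). With the length and GC trend removed the counts were 8 and 14 (9.77%), and the medians were 0.090 and 0.109, beside 0.088 for the members. These lists share their libraries with the members, and differences between lists were not tested.

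Among the 5 mitochondrial ribosomal proteins that go under other names, 2 rose, beside 8.31% of tested genes. Dap3, a GTP-binding protein of the small subunit first described as death-associated protein, was at 57.2, 63.8 and 60.1 FPKM in vehicle and 82.6, 71.4 and 82.8 under sulfatide (log2 fold change 0.38 ± 0.09, limma adjusted p = 0.0236). Gadd45gip1, of the large subunit, was at 41.3, 49.5 and 40.8 and at 63.3, 56.3 and 55.3 FPKM (0.41 ± 0.11, limma adjusted p = 0.0290). The groups were apart for both, but neither was called after rescaling to TPM. With the length and GC trend removed, 2 of the 5 were called higher, beside 9.77% of tested genes. Chchd1, Aurkaip1 and Ptcd3, of the small subunit, did not pass (log2 fold changes 0.30, 0.19 and 0.06).

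The 26 tested genes listed for assembly of the mitochondrial ribosome and modification of its RNA had a median of 0.169. None of them fell, beside 10.4% of all tested genes, and 4 rose, beside 8.31% (0 and 7 unadjusted, beside 15.8% and 18.0%). The 4 were Mterf4, which brings a methyltransferase to the large subunit (13.8 to 18.7 FPKM, log2 fold change 0.41 ± 0.10, limma adjusted p = 0.0277), the small-subunit maturation factor Rbfa (50.2 to 65.2 FPKM, 0.36 ± 0.10, 0.0387), the large-subunit factor Malsu1 (20.2 to 27.1 FPKM, 0.41 ± 0.12, 0.0490) and the pseudouridine synthase family member Rpusd3 (2.60 to 4.67 FPKM, 0.64 ± 0.18, 0.0373). None of the 4 was called after rescaling to TPM. With the length and GC trend removed, 4 genes of the list were called higher, beside 9.77% of tested genes. Of 15 translation factors none passed (4 and 0 unadjusted), and the highest change was that of the recycling factor Mrrf (14.7 to 19.7 FPKM, log2 fold change 0.40 ± 0.13, limma adjusted p = 0.0621). The elongation factor Tufm was at 70.3 and 78.8 FPKM (limma adjusted p = 0.274).

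A list of 14 genes for replication and transcription of mitochondrial DNA also held Pnpt1 and Supv3l1, which act in the turnover of mitochondrial RNA. Of the 14 none rose, beside 8.31% of tested genes, and 1 fell, beside 10.4% (3 and 1 unadjusted). The gene that fell was Pnpt1, the polynucleotide phosphorylase of mitochondria, at 43.5, 35.3 and 35.2 FPKM in vehicle and 23.8, 20.5 and 25.6 under sulfatide (log2 fold change -0.68 ± 0.12, limma adjusted p = 0.00498). No gene of replication or transcription in the list was called. The polymerase Polrmt (6.40 and 6.95 FPKM) and the packaging factor Tfam (37.3 and 39.6 FPKM) did not pass. Among 11 tested regulators of such genes, 2 fell, beside 10.4% of tested genes, and none rose, beside 8.31%. At an unadjusted p under 0.05, 2 were lower and 0 higher. The transcription factor Myc was at 14.2, 13.9 and 15.0 FPKM in vehicle and 6.79, 10.7 and 6.32 under sulfatide (log2 fold change -0.81 ± 0.17, limma adjusted p = 0.0117), and its partner Max at 153, 136 and 143 and at 106, 112 and 96.2 (-0.46 ± 0.09, limma adjusted p = 0.00844). Both lay lower in every sulfatide library. Nrf1 (0.10 ± 0.09), the ETS factor subunit Gabpa (-0.02 ± 0.11) and Yy1 (0.07 ± 0.09), whose sites were searched above, did not pass, and the coactivator Ppargc1a did not exceed 0.090 FPKM.

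The size of the differences varied with transcript length. The longest coding transcripts of the members had a median of 1327.5 nucleotides, against 2967 for tested genes, and over all 10195 tested genes with an annotated transcript the log2 fold change fell with length (Pearson r = -0.19 with log2 length, across genes, which are not independent). Among the members r was -0.17 (n = 78 genes in the same 6 libraries). The 26 shortest members (463 to 1056 nucleotides) had a median log2 fold change of 0.217 with 4 called higher, and the 662 tested genes in that range a median of 0.257 with 21.9% called higher. For the next 26 (1068 to 1849 nucleotides) the medians were 0.148 and 0.136, with 2 members and 13.1% of genes called higher. For the 26 longest (1962 to 7300 nucleotides) they were 0.160 and -0.003, with 3 members and 5.97% of genes called higher. The members' median thus lay below that of genes of like length in the shortest group, close to it in the next and above it in the longest; these differences were not tested.

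**Figure D4:**
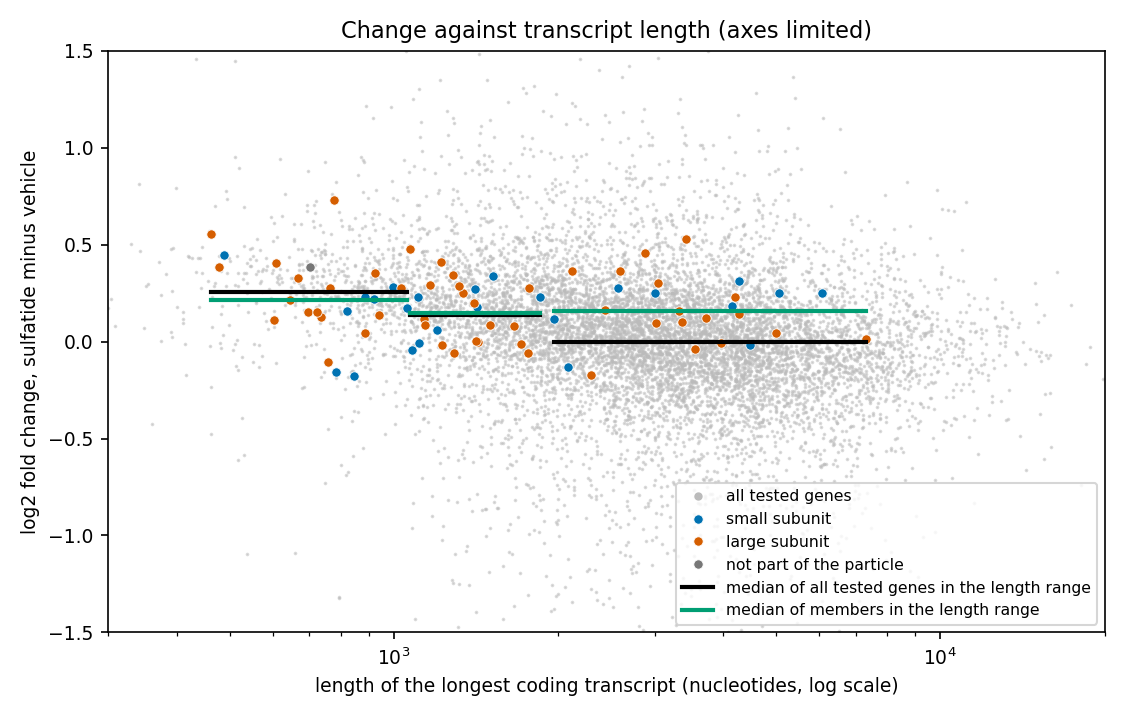
Log2 fold change (sulfatide minus vehicle) against the length of the longest coding transcript on a log axis, with each tested gene as a grey point, members coloured by subunit, and bars for the median over each length range. Green (members) and black (all tested genes) bars are close in the ranges up to 1849 nucleotides and apart above (0.160 and -0.003); points outside the axes are not shown.

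With a trend on transcript length and GC content removed from each library, an alternative chosen after the data were seen, 7 members were called higher, beside 9.77% of tested genes, and 3 lower, beside 10.7%. The median fell to 0.088, against 0.041 for all genes. Of the 9 members called before, 6 remained (Mrpl41, Mrpl51, Mrpl57, Mrpl58, Mrpl40 and Mrpl28) and Mrpl18 was added, while Mrpl52 (log2 fold change 0.26, limma adjusted p = 0.0834), Mrps21 (0.14, 0.160) and Mrpl36 (0.16, 0.221) were lost. The 3 lower members were Mrpl27 (-0.33 ± 0.06, limma adjusted p = 0.00853), Mrps6 (-0.37 ± 0.09, 0.0289) and Mrps28 (-0.36 ± 0.09, 0.0312). With FPKM rescaled to TPM, so that each library has the same sum, the members' median was 0.067 against -0.061 for all genes. Then 6 members were higher, beside 4.49% of tested genes, and none lower, beside 14.7% (Mrpl58, Mrpl36 and Mrpl40 were lost). Over all genes, TPM gave 467 higher and 1527 lower, against 865 and 1078 on FPKM.

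The remaining settings gave between 2 and 33 members called higher. The count was 9 with a pseudocount of 0.1 (beside 8.10% of tested genes) or 0.5 (8.32%) and with a filter at 5 FPKM (9.75%). It was 7 with no filter (3.43%) or no intensity trend (6.95%), 17 after quantile normalization (10.5%), 33 with array weights (19.7%) and 2 in the replicate block fit (2.85%).

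**Figure D5:**
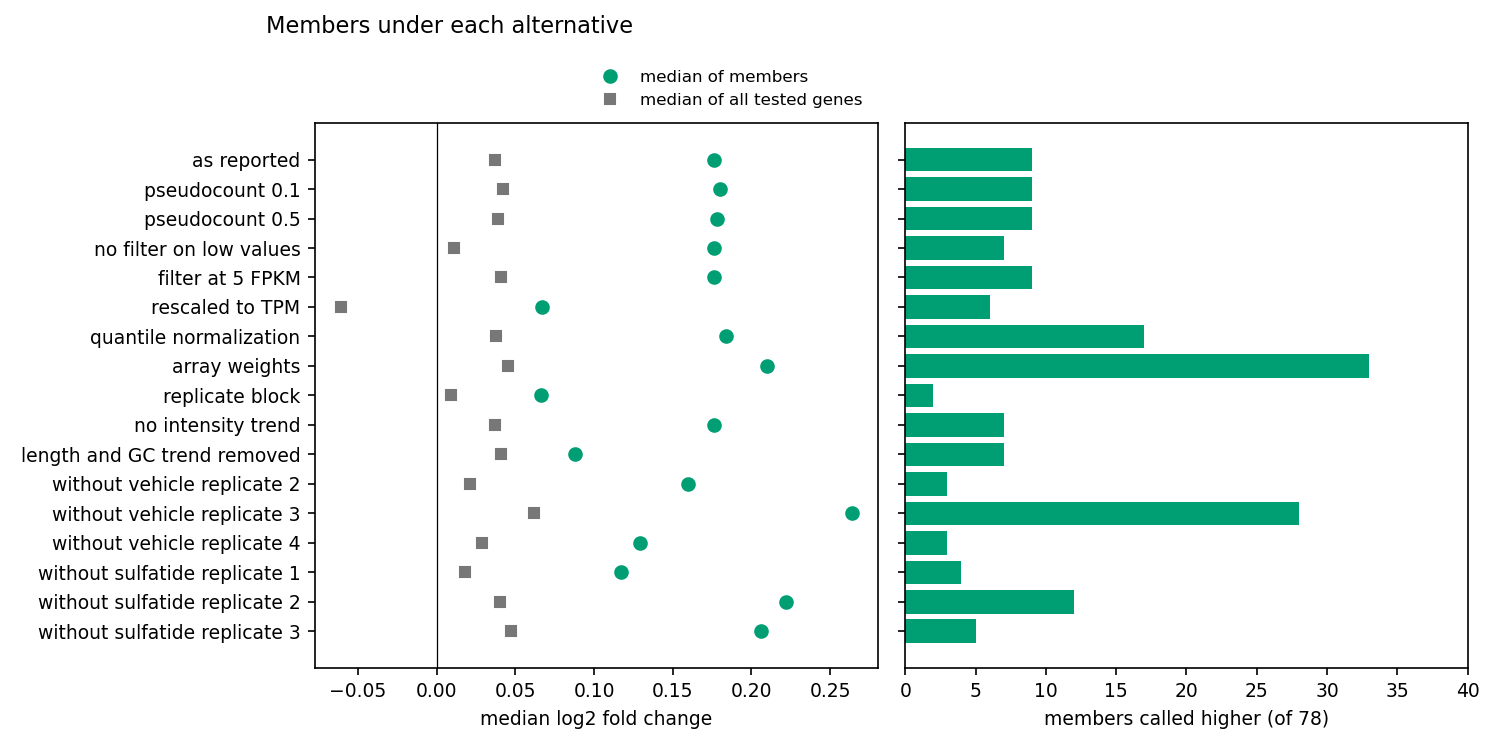
Left, the median log2 fold change of the 78 genes (circles) and of all tested genes (squares) as reported and under 16 alternatives; right, bars for the number of the 78 called higher. The members' median stays above 0 (0.066 to 0.264) and above that of all genes throughout, while the count runs from 2 to 33.

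Members are spread over 17 chromosomes, with 11 of them on chromosome 11, and 29 have a tested protein-coding gene that starts within 1000 bases on the opposite strand. Of the 27 such neighbours that are not members, 5 rose, beside 8.31% of tested genes, and 1 fell, beside 10.4%, with a median of 0.026. By their GENCODE gene starts, Mrpl51 and Ncapd2, a condensin subunit of the cell cycle, start 100 bases apart. The RefSeq start behind the printed Mrpl51 promoter lies further downstream. Ncapd2 rose from 10.9 to 24.1 FPKM (log2 fold change 1.09 ± 0.29, limma adjusted p = 0.0313). Mrpl57 and the spindle gene Ska3 start 49 bases apart, and Ska3 was at 3.59 and 6.65 FPKM (0.74 ± 0.25, limma adjusted p = 0.0698). Mrpl36 shares 30 exonic bases with Ndufs6, a complex I subunit that rose as well (0.40 ± 0.10, limma adjusted p = 0.0236). Mrpl30 and Mitd1 start 66 bases apart, with Mrpl30 at 173 ± 10.2 and 166 ± 17.4 FPKM and Mitd1 falling from 90.7 to 46.7 FPKM (-0.95 ± 0.15, limma adjusted p = 0.00309). Also called higher was Pnpla7, the neighbour of Mrpl41 (0.37 ± 0.11). So were Klc4 (0.60 ± 0.15) and Fau (0.46 ± 0.12), whose partners Mrpl2 and Mrpl49 did not pass. The neighbours named were chosen after their values were seen.

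Counting could blur some members. In the GENCODE annotation 21 members share exonic bases with another gene of the table. For 3 of them, Mrps24 (with Urgcp), Mrps6 (with Slc5a3) and Mrps34 (with Nme3, 37.0% of its exonic bases), the other gene is on the same strand. Libraries were strand-specific, and whether fragments were assigned by strand is not stated in the labels, so values of overlapping genes are uncertain, as are those of Mrps36, Mrpl23 and Mrpl48, which have processed pseudogenes. Of the 9 called members only Mrpl36 overlaps another gene.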

How the data were processed

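RNA of lavage cells was measured in 6 libraries. TRIzol extraction, poly(A) selection and dUTP strand-specific libraries, read as Illumina read pairs, are given per the labels' protocols. Reads were placed on mm10 (per the submitters' processing notes), with an aligner, a counting program and an annotation not given in the sources used here. The authors deposited 1 table of FPKM values rounded to 2 decimals, so absolute depth is unknown. It held 3 further value columns that match no sample, and these were not used.

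Values were analysed as log2(FPKM + 1) for the 10405 genes with at least 1 FPKM in at least 3 libraries, with limma 3.58.1 in R 4.3.3 (lmFit, eBayes with an intensity trend), 2-sided, adjusted by Benjamini-Hochberg over all genes tested and called below 0.05. The fit was tested on simulated data. Folds are ratios of mean FPKM, and log2 fold changes are given with their standard error; the pseudocount shrinks those of low genes. With 3 libraries a group, the smallest 2-sided p of an exact permutation test is 0.1, so none was run. Lengths and positions are from GENCODE M21 (GRCm38, the same assembly as mm10), where 78 of 78 members matched, and promoters from RefSeq (GRCm38.p6). The transcript lengths behind the deposited FPKM are not known. Mitochondrially encoded genes carry the table's names (COX2) and were not in the length analysis. The assembly list holds 1 gene, Mpv17l, without an established role there.

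Members and lists were chosen with earlier results of these data known. Members named were those called, the 5 with the largest change in each direction, the 4 highest and the 4 lowest by level, and a fixed set (Mrpl12, Mrpl58, Mrps36, Mrps30, Mrps18a, Mrps18b, Mrps18c, Mrpl41, Mrps12 and Mrpl11). Of the other lists, up to 4 called genes with the smallest p were named; the remaining genes, among them COX2, Mrrf, Tufm, Polrmt and Tfam, were picked with their values in view, as was the set of motifs. Alternatives were a pseudocount of 0.1 or 0.5, testing without a filter or with one at 5 FPKM, TPM, quantile normalization, array weights, the replicate number as a block, no intensity trend, and each library left out in turn.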

Additional observations from a re-analysis of the deposited data

How the results depend on the processing

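Over the 16 alternatives the median log2 fold change of the members kept its sign, and 0 members were called lower in all but 1, the fit without the length and GC trend (3). The number called higher was 17 after quantile normalization (10.5% of tested genes), 33 with array weights (19.7%) and 2 in the replicate block fit (2.85%), and 3 to 28 with 1 library left out, where the median was 0.117 to 0.264. The count over all genes was 522 higher with no filter and 467 in TPM. It was 2054 higher and 1723 lower with array weights, 297 and 635 with the block, and 263 to 1420 and 603 to 1136 with 1 library left out. Replicate numbers 2 and 3 are shared by the groups, and nothing in the labels says that they pair the samples. Deviations from the group means correlated at 0.16 for number 2 and -0.30 for number 3 over genes, and the median of the members was 0.066 in the block fit, where vehicle replicate 4 and sulfatide replicate 1 have no partner and add nothing to the difference. Values near 0 changed sign: Mrps22 to -0.045 in TPM, -0.074 with the block, -0.085 without the length and GC trend and -0.028 without sulfatide replicate 1 (-0.028 to 0.136 with 1 library left out), Mrps18a to -0.065 in TPM, -0.019 with the block and -0.130 without the trend, and Mrps18c to -0.061 without the trend. Of the other values of named members, 365 stayed on their side of the threshold, 39 lost it and 20 gained it. Absolute depth is unknown, so counting error could not be set beside the spread between libraries.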
